A study of Mus musculus with 14 samples.

Results

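The 39 genes described here encode the enzymes and transporters of glycolysis, glycogen and phosphocreatine metabolism in mouse esophagus. Members were the rows of the deposited count tables whose symbol equalled one of 39 listed symbols, out of 55291 symbols, and all 39 were present. Bulk RNA-Seq had been made from wild type C57BL/6 mice, with no transgene or treatment in any group. Peeled epithelium came from 5 aged and 4 young mice, and stroma came from 5 of these animals, aged O1, O2 and O3 and young Y1 and Y3. Aged means at least 18 months and young at most 4 months. Aged OF5 and OM8 and young YF5 and YM4 gave epithelium only. The epithelial layer is what was left after the muscle layer had been pulled off with forceps, so it is a sheet enriched for epithelium and not a sorted cell population, and the stroma is a bulk tissue of several cell types.

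Glycolysis splits glucose into pyruvate, and most of its steps can be run by more than one isozyme, each from its own gene. Skeletal muscle is known for its own set of these isozymes (Ckm, Pgam2, Eno3, Pygm, Pfkm), which together with glycogen and phosphocreatine allow bursts of contraction, while proliferating and squamous epithelia use widely expressed forms. The mouse esophagus is encircled by striated muscle along its length, so its outer layer holds skeletal muscle fibres.

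By marker genes, the epithelial samples were rich in squamous epithelium RNA and the stromal samples in skeletal muscle RNA. Levels are given as normalized counts, that is CPM on the TMM-scaled library. The sum of 8 squamous epithelium markers (Krt5, Krt14, Krt15, Trp63, Krt13, Krt4, Krtdap and Cnfn) was 17324 to 54559 in epithelium and 46.5 to 457 in stroma, and all 8 were higher in epithelium. The sum of 10 skeletal muscle markers (Acta1, Myh1, Myh2, Myh4, Mylpf, Tnnt3, Tnni2, Tnnc2, Ttn and Neb) was 38928 to 71149 in stroma and 14.5 to 1627 in epithelium. Other cells were present on both sides: the smooth muscle sum (5 genes) was 333 to 835 in epithelium and 303 to 2051 in stroma, and the fibroblast sum (6 genes) was 280.5 to 632 and 415 to 1031. Leukocyte, endothelial, adipocyte, red blood cell and Schwann cell sums were higher in every stromal sample than in every epithelial one, and the leukocyte sum was 1245 in the stroma of mouse O3 against at most 170.2 in the other stromal samples. Total counts were 16477424 to 21867101 in epithelium from the 5 animals that also gave stroma, 13257833 to 15644580 in stroma, and 8217516 to 9399448 in the 4 epithelial samples of mice without stroma. On the normalized scale 3 counts were worth 0.0872 to 0.124, 0.115 to 0.175 and 0.707 to 1.25 in these groups, so values near or under 1 in the last group rest on very few reads.

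Of the 39 members, 38 differed between the layers, 10 higher in epithelium and 28 lower (edgeR's quasi-likelihood test, Benjamini-Hochberg adjusted p under 0.05 over 16791 genes). Over all genes tested, 56.2% were called, 26.1% higher and 30.1% lower in epithelium, so being called was common in this contrast. The median log2 fold change (epithelium minus stroma) was -1.79 over the members and -0.05 over all genes, and 15 members lay below -4 against 3.39% of all genes. In 29 members, 7 higher and 22 lower, the 9 epithelial and 5 stromal samples did not overlap, against 31.3% of all genes. With mouse as a replicate block in the 5 mice with both layers, 32 members were called (10 higher, 22 lower) against 51.4% of all genes. The block lost Slc16a1, Tpi1, Pkm, Ldha, Pygb and Ckb, whose adjusted p there were 0.116, 0.0541, 0.0857, 0.0726, 0.289 and 0.0814. In bulk tissue, fewer cells of a type and less RNA per cell cannot be told apart.

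**Figure D1:**
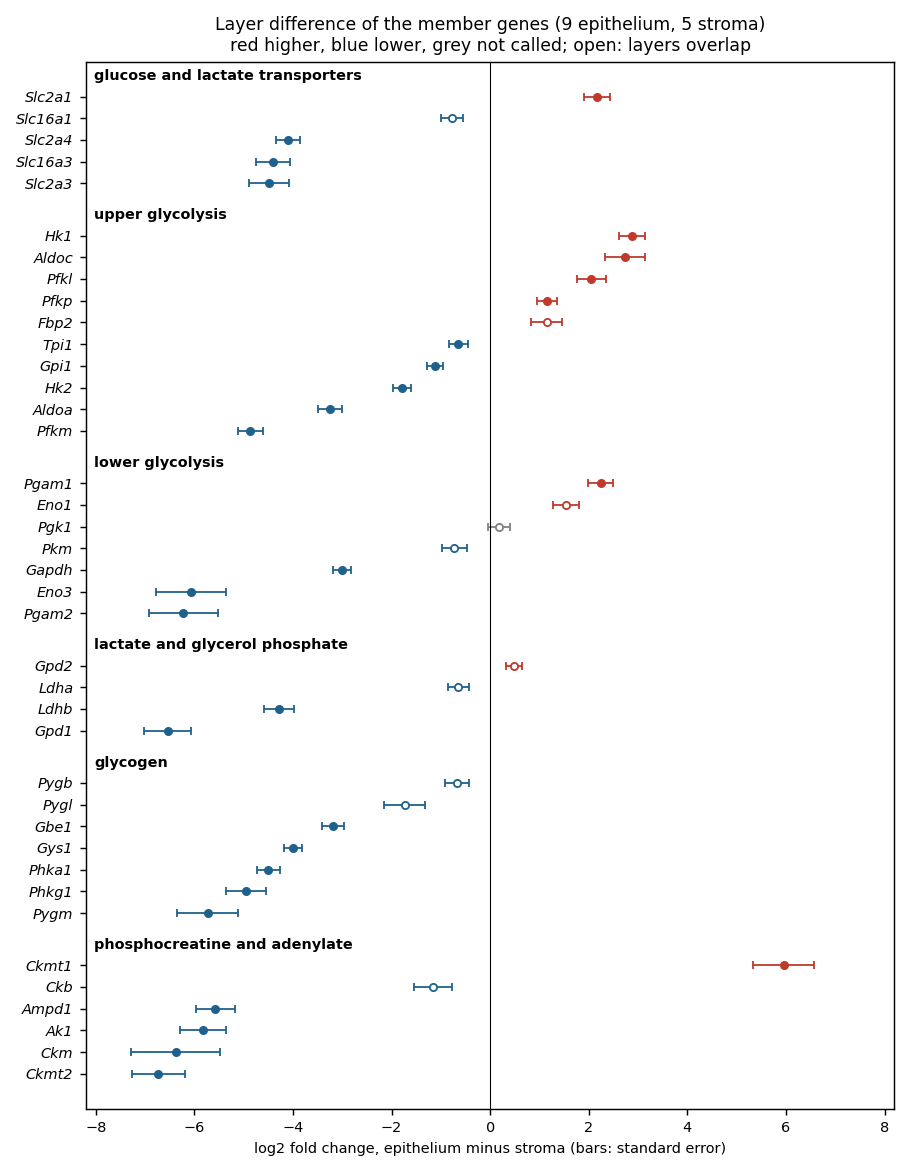
Log2 fold change of each of the 39 genes between epithelium and stroma (x axis, epithelium minus stroma) with its standard error, grouped by role. Red points (10 genes) are higher and blue points (28 genes) lower in epithelium at an adjusted p under 0.05, grey is Pgk1, and open points are genes whose layers overlap. Isozymes of hexokinase, phosphofructokinase, mutase, enolase and mitochondrial creatine kinase fall on opposite sides of 0, with Ckmt1 farthest to the right at 5.96 and Ckmt2 farthest to the left at -6.73.

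Glucose and lactate transporters split by isoform. Slc2a1 (chr4:119108711-119137983), which encodes the widely expressed transporter GLUT1, was at 6.01, 8.63, 15.95, 5.57 and 4.73 normalized counts in the stroma of O1, O2, O3, Y1 and Y3, and at 24.7 to 47.5 (median 39.1) in epithelium. The layers did not overlap, and the log2 fold change was 2.16 (standard error, SE, 0.26, edgeR adjusted p = 6.96e-07). Slc2a4 (chr11:69942539-69948188), the insulin-responsive GLUT4 of muscle and fat, ran the other way, with 54.6 to 76.4 normalized counts in stroma and 2.09 to 7.62 (median 3.10) in epithelium (log2 fold change -4.09, SE 0.24). Slc2a3, the high-affinity GLUT3, was lower in epithelium as well (0.67 ± 0.551, SD, n = 9, against 15.2 ± 6.51, SD, n = 5), with 2 epithelial samples at 0. Of the monocarboxylate transporters, which carry lactate, Slc16a3 (MCT4) fell from 22.6 ± 7.84 in stroma (SD, n = 5) to 1.26 ± 0.859 in epithelium (SD, n = 9). Slc16a1 (MCT1) was at 22.7 ± 7.29 in stroma and 13.0 ± 3.75 in epithelium, the layers overlapped, and its call was lost under the mouse block.

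In the first steps of glycolysis, hexokinase, which traps glucose as glucose 6-phosphate, showed an exchange of genes. Hk1 (chr10:62268855-62379908) was at 6.71, 15.57, 23.5, 15.6 and 12.6 normalized counts in the stroma of O1, O2, O3, Y1 and Y3 and at 76.7 to 135.7 (median 113.8) in epithelium, with a log2 fold change of 2.87 (SE 0.26, edgeR adjusted p = 1.3e-08). Hk2 (chr6:82725025-82774454), the muscle and insulin-regulated form, was at 190.6, 126.0, 126.0, 150.4 and 116.1 in stroma and at 24.8 to 49.2 (median 43.8) in epithelium. Its log2 fold change was -1.79 (SE 0.18), and neither gene overlapped between the layers. Divided by transcript length, Hk1 made up 71.3% to 83.6% of the hexokinase signal in epithelium and 5.06% to 22.1% in stroma. The sum of both genes overlapped between the layers, at 37.1 ± 7.66 normalized counts per kilobase in the 9 epithelial samples (SD) against 29.8 ± 4.53 in the 5 stromal ones (SD).

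Phosphofructokinase, the committed step, was read from 3 genes. Pfkm (chr15:98092589-98132451), the muscle subunit, was at 336, 269, 287, 255 and 226 normalized counts in the stroma of O1, O2, O3, Y1 and Y3 and at 4.15 to 17.4 (median 8.49) in epithelium, a log2 fold change of -4.86 (SE 0.25, edgeR adjusted p = 3.81e-12). Pfkl, the liver form, rose to 37.3 ± 7.39 in epithelium (SD, n = 9) from 9.01 ± 6.26 in stroma (SD, n = 5), and Pfkp, the platelet form, to 38.7 ± 4.95 from 17.5 ± 6.9. Per kilobase, epithelium held Pfkl and Pfkp in similar shares (medians 44.4% and 41.3%), whereas Pfkm made up 89.1% to 96.2% of the stromal signal. Fbp2, a fructose bisphosphatase that runs this step backwards and is known from muscle, was higher in epithelium (17.5 ± 4.68 against 7.98 ± 5.4, log2 fold change 1.15), but its layers overlapped, since mouse Y3 had 16.7 normalized counts in stroma and 16.7 in epithelium.

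Aldolase, which cuts the six-carbon sugar, did not change its main gene. Aldoa (chr7:126795234-126800751) was the highest member per length in both layers. Its normalized counts were 2429.6, 1895, 1714, 2268 and 1746 in the stroma of O1, O2, O3, Y1 and Y3 and 124.9 to 285 (median 227) in epithelium, a log2 fold change of -3.26 (SE 0.25, edgeR adjusted p = 6.66e-10). It made up 97.3% or more of aldolase signal per kilobase in every sample. Aldoc, the brain form, was low but higher in epithelium (7.14 ± 1.93, SD, n = 9, against 1.08 ± 0.685, SD, n = 5). The single-gene steps differed less: Gpi1, glucose 6-phosphate isomerase, had a log2 fold change of -1.12 and Tpi1, triose phosphate isomerase, of -0.65, with no overlap of the layers in either.

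In the second, ATP-yielding stage, phosphoglycerate mutase and enolase had a muscle gene lower and a widely expressed gene higher in epithelium. Pgam2 (chr11:5801640-5803733), the muscle mutase, was at 294.9, 259, 251, 350.1 and 203 normalized counts in the stroma of O1, O2, O3, Y1 and Y3 and at 0.236 to 20.4 (median 1.56) in epithelium, while Pgam1 (chr19:41911923-41918660), the widely expressed form, was at 7.29, 12.1, 4.59, 4.28 and 6.38 in stroma and 22.1 to 43.6 (median 30.8) in epithelium. The log2 fold changes were -6.22 (SE 0.70), which was -6.82 without mouse YF5, and 2.24 (SE 0.25). Reads of Pgam1 are uncertain, because 41.5% of the 50-base words of its transcript also occur in other annotated genes. Per kilobase Pgam1 made up 41.7% to 98.1% of the mutase signal in epithelium, and YF5, at the low end, was the epithelial sample where Pgam2 led (58.3%). Eno3 (chr11:70657202-70662513), the muscle enolase, was at 660.2, 617, 499, 726 and 465 in stroma and 1.65 to 40.0 (median 3.90) in epithelium, a log2 fold change of -6.07 (SE 0.71), or -6.68 without mouse YF5. Eno3 made up 66.0% of enolase signal per kilobase in the epithelium of YF5 and 5.23% at the lowest. Eno1, the widely expressed enolase, rose to 49.3 ± 14.4 in epithelium (SD, n = 9) from 17.1 ± 8.21 in stroma (SD, n = 5), with overlap in the 14 samples but none within the 5 mice with both layers. Reads of Eno1 are uncertain, because 72.2% of the 50-base words of its main transcript also occur in other annotated genes, 70.5% in Eno1b, which itself had a log2 fold change of 1.93.

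The remaining steps of this stage have no muscle-specific gene among the members. Gapdh, which makes NADH and is often used as a reference gene, was 8.05-fold lower in epithelium (9.35 ± 2.58, SD, n = 9, against 77.2 ± 10.1, SD, n = 5), with no overlap. Its level is likewise uncertain, since 90.4% of the words of its transcript occur elsewhere in the annotation, in 218 other genes. Pgk1, phosphoglycerate kinase, was the member not called (14.9 ± 4.64 against 13.4 ± 3.15, log2 fold change 0.18, edgeR adjusted p = 0.496), and 68% of its words are shared. Pkm, pyruvate kinase, whose M1 and M2 transcripts cannot be separated in counts per gene, was at 156.6 ± 61.9 in epithelium and 260.1 ± 21.4 in stroma. The Pkm layers overlapped, and its call was lost in the 5 mice with both layers also without the block (edgeR adjusted p = 0.0792). Shared words also made up 34.4% of the transcript of Pkm, 27% of Ldhb, 21.9% of Ckb, 19.3% of Gpi1 and 17.1% of Ldha. Apart from these genes and Pgam1, Eno1, Gapdh and Pgk1, the share was at most 13.9% (Aldoa).

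**Figure D2:**
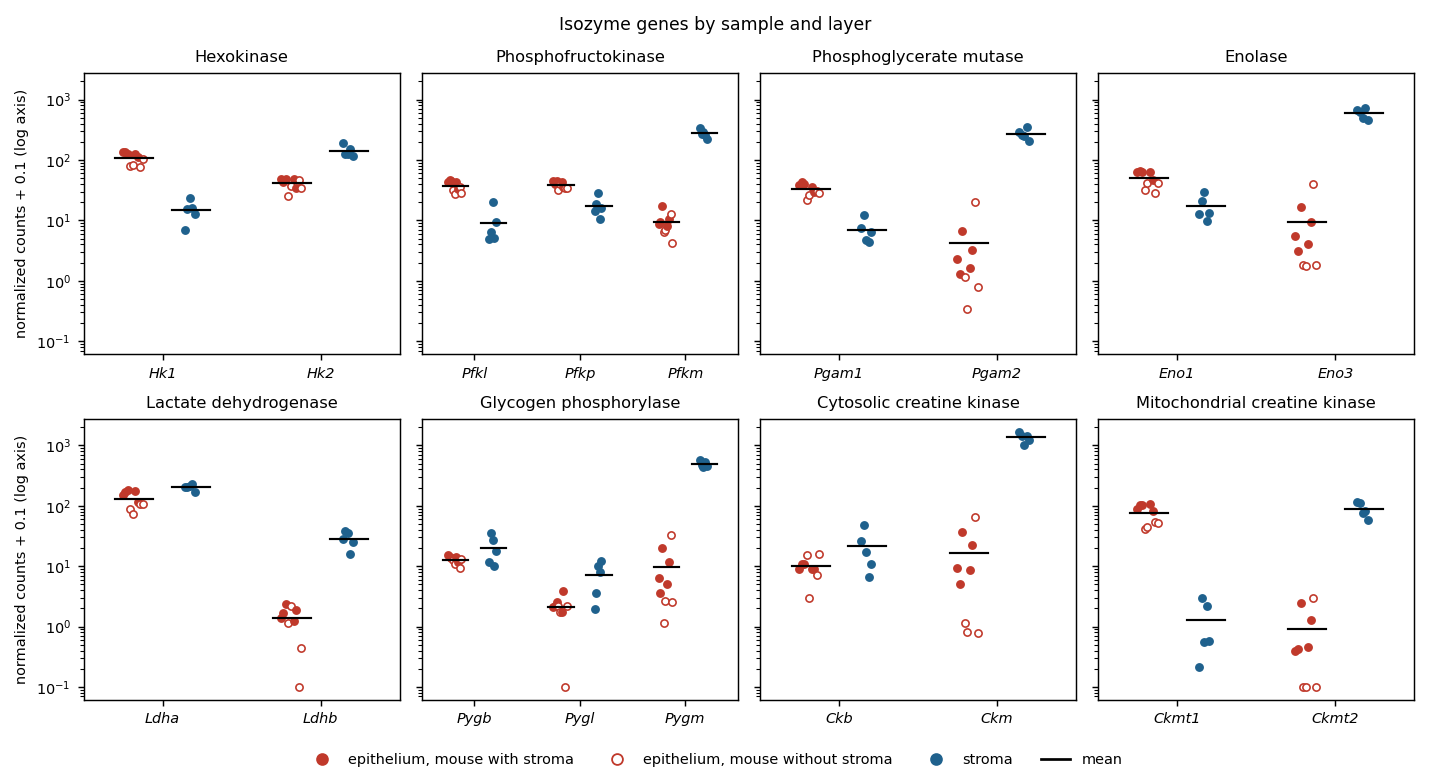
Normalized counts plus 0.1 (log y axis) of 18 isozyme genes in each sample, red for epithelium (open for the 4 mice without stroma), blue for stroma, with the mean as a black line. Red points lie higher than blue on average for Hk1, Pfkl, Pfkp, Pgam1, Eno1 and Ckmt1 and lower for Hk2, Pfkm, Pgam2, Eno3 and Ckmt2, and the epithelial points of Pgam2, Eno3, Pygm and Ckm spread far more than those of Hk1 or Pfkp.

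Lactate dehydrogenase and the cytosolic glycerol phosphate dehydrogenase both reoxidise NADH. Ldha, which favours lactate formation, was the main gene in both layers, at 129.5 ± 39.7 in epithelium and 202.8 ± 22.4 in stroma (log2 fold change -0.64), and its call was lost in the 5 mice with both layers also without the block (adjusted p = 0.0726). Ldhb, the heart form, was at 28.4, 38.2, 34.9, 15.8 and 25.1 in the stroma of O1, O2, O3, Y1 and Y3 and at 0 to 2.28 (median 1.28) in epithelium. Gpd1, the cytosolic enzyme of the glycerol phosphate shuttle, was at 31.7 to 61.9 in stroma and 0 to 2.50 in epithelium, with 3 epithelial samples at 0 (log2 fold change -6.55, SE 0.47). Its mitochondrial partner Gpd2 was slightly higher in epithelium (20.2 ± 3.28 against 14.6 ± 1.98, log2 fold change 0.49, edgeR adjusted p = 0.0139), a call lost without mouse O1 (adjusted p = 0.0749) or without mouse Y3 (0.0587).

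Glycogen genes were lower in epithelium in 7 of 7 cases, and in 6 with the mouse block. Pygm (chr19:6384399-6398459), the muscle glycogen phosphorylase, was at 569, 467, 446, 525 and 448 normalized counts in the stroma of O1, O2, O3, Y1 and Y3 and at 1.03 to 32.5 (median 5.07) in epithelium, a log2 fold change of -5.73 (SE 0.62, edgeR adjusted p = 1.38e-06). Phka1 and Phkg1, subunits of the muscle phosphorylase kinase that activates it, had log2 fold changes of -4.50 and -4.95. Gys1, the glycogen synthase of muscle and most tissues, was at 107 ± 11.3 in stroma (SD, n = 5) and 6.6 ± 2.03 in epithelium (SD, n = 9), and Gbe1, the branching enzyme, at 44.5 ± 8.42 and 4.61 ± 1.68. The other phosphorylases differed less and overlapped: Pygl, the liver form, was low in both layers (1.98 ± 0.979 and 7.01 ± 4.23), and Pygb, the brain form, was at 12.6 ± 1.91 in epithelium and 20.2 ± 10.6 in stroma. The Pygb call was lost without mouse O2 (adjusted p = 0.164) or mouse O3 (0.0912). Per kilobase, Pygb was the leading phosphorylase in epithelium by its median share (60.4%, range 17.2% to 74.4%), and Pygm made up 93.7% or more in stroma.

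Creatine kinases, which pass phosphate between ATP and creatine, gave both extremes of the list. Ckmt1 (chr2:121357714-121363737), the ubiquitous mitochondrial form, was at 0.117, 2.83, 0.459, 2.12 and 0.473 normalized counts in the stroma of O1, O2, O3, Y1 and Y3 and at 41.3 to 106.5 (median 80.7) in epithelium. Its log2 fold change of 5.96 (SE 0.62, edgeR adjusted p = 6.73e-07) was the largest among members. Ckmt2 (chr13:91853387-91876885), the sarcomeric mitochondrial form, was at 115.1, 109.1, 77.1, 82.5 and 57.8 in stroma and 0 to 2.92 (median 0.333) in epithelium, with 3 epithelial samples at 0 (log2 fold change -6.73, SE 0.55, and -7.37 without mouse O3). Per kilobase, Ckmt1 was 94.3% to 100% of mitochondrial creatine kinase signal in epithelium and 0.0929% to 2.33% in stroma. The sum of both overlapped between the layers (46.7 ± 16.9 per kilobase in epithelium, 60.2 ± 16.1 in stroma).

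The sum of the cytosolic creatine kinases, in contrast, did not overlap between the layers. Ckm (chr7:19404776-19422841), the muscle form, was at 1677, 1420, 1021, 1414 and 1234 normalized counts in the stroma of O1, O2, O3, Y1 and Y3 and at 0.692 to 65.0 (median 8.5) in epithelium (log2 fold change -6.38, SE 0.91). Ckb (chr12:111669361-111672338), the brain form, was lower in epithelium too (9.9 ± 3.98 against 21.9 ± 16.8, log2 fold change -1.16), but the layers overlapped and the call was lost without mouse O1 (adjusted p = 0.0620) or mouse O2 (0.141). The summed cytosolic signal was 508 ± 93 per kilobase in stroma and 12.7 ± 7.64 in epithelium. For Ckm this used a principal transcript of 2742 bases. The RefSeq start of Ckm, just after chr7:19411093, lies inside the gene span given here. The length that fits the Ckm reads, and so its level per kilobase, is therefore uncertain. Ak1, an adenylate kinase of muscle, and Ampd1, the AMP deaminase of muscle, had log2 fold changes of -5.83 and -5.57, the latter -6.20 without mouse Y3.

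The promoters of 4 genes with some of the largest layer differences (Ckm, Pgam2, Ckmt2 and Pygm) are shown so that their letters can be read, with Ckb and Pgam1, other isozymes of the Ckm and Pgam2 reactions. Each is the 250 bases before the RefSeq start in GRCm38.p6, written 5′ to 3′ on the strand of the gene, with capitals for CAGCTG (an E-box, the kind of site bound by myogenic factors), GGGCGG or its reverse complement (a GC box) and TATAAA.
Ckm promoter, chr7:19410844-19411093, plus strand: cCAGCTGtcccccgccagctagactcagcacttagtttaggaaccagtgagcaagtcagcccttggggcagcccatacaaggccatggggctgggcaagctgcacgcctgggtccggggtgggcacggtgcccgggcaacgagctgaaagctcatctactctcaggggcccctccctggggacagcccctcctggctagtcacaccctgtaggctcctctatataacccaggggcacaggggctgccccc
Ckb promoter, chr12:111672339-111672588, minus strand: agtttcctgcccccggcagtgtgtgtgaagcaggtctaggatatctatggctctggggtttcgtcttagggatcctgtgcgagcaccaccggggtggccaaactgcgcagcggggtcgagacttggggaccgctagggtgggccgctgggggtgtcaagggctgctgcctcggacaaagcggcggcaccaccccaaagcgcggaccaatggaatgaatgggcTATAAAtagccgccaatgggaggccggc
Pgam2 promoter, chr11:5803797-5804046, minus strand: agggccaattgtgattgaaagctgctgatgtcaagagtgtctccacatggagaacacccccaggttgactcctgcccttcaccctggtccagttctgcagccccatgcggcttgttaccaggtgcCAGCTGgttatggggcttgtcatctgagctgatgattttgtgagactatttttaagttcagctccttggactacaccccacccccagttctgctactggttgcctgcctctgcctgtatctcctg
Pgam1 promoter, chr19:41911621-41911870, plus strand: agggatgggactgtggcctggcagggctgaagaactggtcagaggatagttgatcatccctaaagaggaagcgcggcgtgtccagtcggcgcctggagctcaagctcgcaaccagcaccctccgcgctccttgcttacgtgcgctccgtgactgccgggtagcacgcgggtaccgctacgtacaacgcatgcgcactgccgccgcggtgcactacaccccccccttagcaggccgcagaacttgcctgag
Ckmt2 promoter, chr13:91876886-91877135, minus strand: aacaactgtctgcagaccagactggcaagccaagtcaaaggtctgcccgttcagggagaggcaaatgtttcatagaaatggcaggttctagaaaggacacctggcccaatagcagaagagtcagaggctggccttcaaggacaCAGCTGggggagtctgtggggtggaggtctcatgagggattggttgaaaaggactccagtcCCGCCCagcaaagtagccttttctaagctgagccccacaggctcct
Pygm promoter, chr19:6384158-6384407, plus strand: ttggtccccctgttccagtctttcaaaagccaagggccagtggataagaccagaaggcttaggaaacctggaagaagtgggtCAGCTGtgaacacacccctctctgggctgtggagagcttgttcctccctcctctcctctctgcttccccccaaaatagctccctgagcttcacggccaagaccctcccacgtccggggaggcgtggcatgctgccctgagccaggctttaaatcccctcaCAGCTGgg

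Of these 6, the 4 genes lower in epithelium at a log2 fold change under -5 (Ckm, Pgam2, Pygm and Ckmt2) each held at least 1 E-box, Pygm held 2, and Ckb and Pgam1 held none. Among all 6 members under -5 with a listed promoter, CAGCTG was also found in Ak1 but not in Eno3. Promoters were listed for 35 of the 39 members (not for Slc2a3, Slc2a4, Gpd1 and Ampd1), and a gene with several listed starts was counted once if any held the motif. CAGCTG occurred in 9 of 24 members lower in epithelium (37.5%), 1 of 10 higher (10%, Fbp2) and 14.7% of 27025 genes. GGGCGG was found in 50% of both member groups and 35.4% of all genes, and TATAAA in 5.71% of the members and 14.3% of all genes. ACGTG or GCGTG (a hypoxia core, not capitalised above) was also searched. It was found in 66.7% of members lower in epithelium, 90% of those higher and 41.5% of all genes. These are matches of letters and say nothing of binding.

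To compare isozymes free of library scaling, the log2 ratio of the counts of 15 pairs was taken within each sample (0.5 added to each count). Among them, Gpd2/Gpd1 joins partners of the glycerol phosphate shuttle, which are not isozymes of the same reaction. In 14 of the 15 pairs the ratio differed between layers (exact two-sided permutation test, 9 against 5 samples, adjusted over the 15 pairs), and in 13 pairs no sample overlapped. Each of these 13 had p = 0.000999, the smallest that the 2002 divisions of the samples allow, and an adjusted p of 0.00115 by the exact test. Where both genes had separated the layers in opposite directions, as with Hk2/Hk1, Pfkm/Pfkl and Ckmt2/Ckmt1, the ratio had to separate as well. For such pairs the test adds nothing to the gene results. How often other pairs of genes separate was not counted, and 31.3% of all single genes tested did not overlap. In 9 pairs the mean ratio had a different sign in each layer, and in 6 of these every epithelial sample lay on 1 side of 0 and every stromal sample on the other. In the epithelium of YF5 the Eno3/Eno1 ratio was above 0, as in stroma, and Ckm/Ckb was above 0 in the epithelium of O1, O3, Y3 and YF5. Ckmt2/Ckmt1 moved most, from 6.87 ± 1.8 in stroma (SD, n = 5) to -7.21 ± 1.6 in epithelium (SD, n = 9), followed by Pgam2/Pgam1 (5.37 ± 0.737 to -3.95 ± 1.65), Eno3/Eno1 (5.21 ± 0.823 to -3.2 ± 1.67), Gpd2/Gpd1 (-1.53 ± 0.453 to 5.88 ± 1.52) and Pfkm/Pfkl (5.13 ± 0.901 to -2.08 ± 0.471). Hk2/Hk1 went from 3.34 ± 0.891 to -1.40 ± 0.321. Pygm/Pygl differed with overlap (adjusted p = 0.00535, exact permutation test), and Pygb/Pygl did not pass (difference 1.23, adjusted p = 0.0669, exact permutation test) until mouse O2 was left out (1.66, adjusted p = 0.0242, exact permutation test). Within mice, 14 pairs moved the same way in all 5 animals, but the exact sign-flip test over 5 mice, which keeps the pairing as a replicate block, cannot go below p = 0.0625, so that 0 pairs passed in it.

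**Figure D3:**
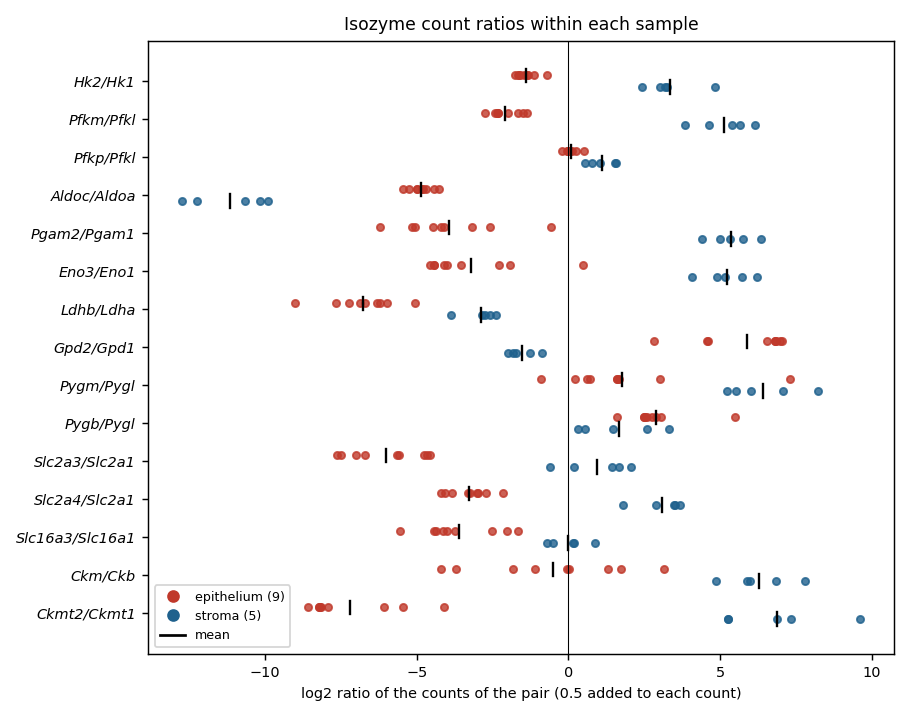
Log2 ratio of the counts of each gene pair (x axis, 0.5 added to each count) in the 9 epithelial samples (red) and 5 stromal samples (blue), with means as black bars. The 2 colours are separate in 13 of 15 rows and lie on opposite sides of 0 on average in 9. Pygm/Pygl and Pygb/Pygl overlap.

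The members in epithelium were set beside the skeletal muscle markers of the same samples. The mean of each skeletal muscle marker in epithelium was 0.597% to 3.10% of its mean in stroma. For 9 members the epithelial mean fell in this range, and 8 of them were under 2%: Ckmt2 (0.935%), Ckm (1.22%), Gpd1 (1.24%), Pgam2 (1.52%), Eno3 (1.56%), Ampd1 (1.62%), Ak1 (1.76%) and Pygm (1.92%), with Phkg1 at 2.74%. The muscle sum was highest in the epithelium of YF5 (1627), O3 (955) and Y3 (589) and lowest in OF5 (14.5), YM4 (67.5) and OM8 (76.4). Ckm was at 65.0, 36.0 and 22.0 in the first 3 of these samples and at 1.03, 0.692 and 0.707 in the last 3. The first 3 were also the highest for 8 members (Ckmt2, Ckm, Gpd1, Pgam2, Eno3, Ak1, Pygm and Pfkm). The epithelial mean of other members lower in epithelium was above the range of the markers, such as Pfkm (3.38%), Slc2a4 (6.44%), Gys1 (6.16%), Aldoa (10.5%), Gapdh (12.1%) and Hk2 (28.8%). In OF5, YM4 and OM8, Aldoa was at 130.9, 162.4 and 124.9 normalized counts, against 229.6, 285 and 212.5 in YF5, O3 and Y3. Hk2 was at 24.8, 34.3 and 37.0 in the former and at 46.7, 48.7 and 33.9 in the latter. OF5, YM4 and OM8 are all mice without stroma, whose epithelial samples had the lowest total counts, whereas O3 and Y3 are not. These contrasts therefore mix the muscle sum with that set of samples. Among the members higher in epithelium, Ckmt1 was at 52.9 in YF5 and 103.4 in O3, while Slc2a1 was highest in YF5 (47.5) and O3 (42.9). Whether residual muscle contributes to these epithelial levels, and how much, was not tested.

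**Figure D4:**
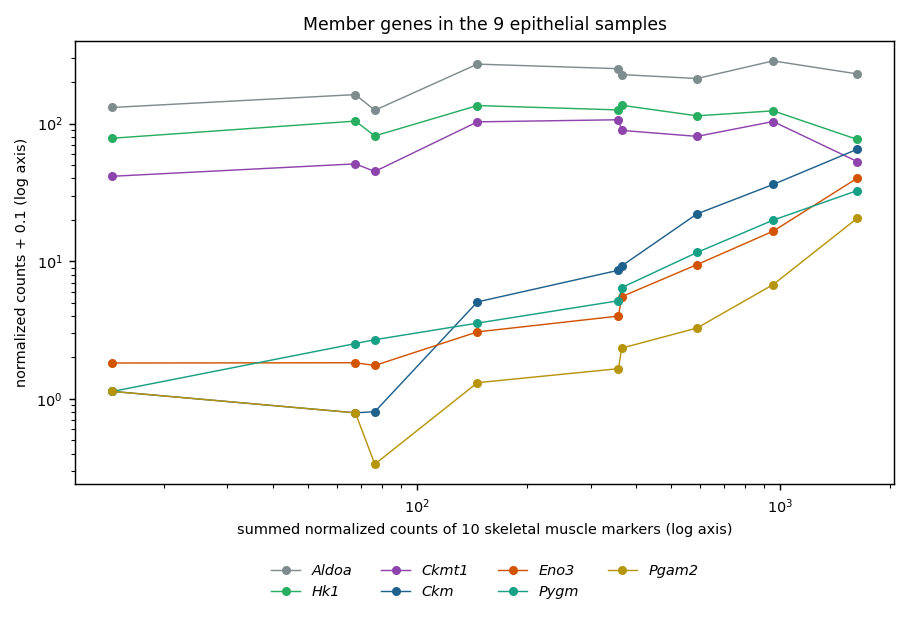
Normalized counts plus 0.1 of 7 members (log y axis) against the summed normalized counts of 10 skeletal muscle markers (log x axis) in the 9 epithelial samples, with the points of a gene joined in order of the sum. Ckm, Eno3, Pygm and Pgam2 are highest in the sample with the highest sum (1627), whereas Aldoa, Hk1 and Ckmt1 stay within 124.9 to 285, 76.7 to 135.7 and 41.3 to 106.5.

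The 4 epithelial samples of mice without stroma were compared with the other 5. In 8 of 39 members (20.5%) they did not overlap, close to the 19.6% of all genes that did not overlap in either direction. All 8 were lower in the 4 samples, which held for 16.7% of all genes. The 8 were Hk1, Fbp2, Tpi1, Pgk1, Eno1, Pkm, Ldha and Ckmt1. For Ckmt1 the 4 samples ranged from 41.3 to 52.9 and the other 5 from 80.7 to 106.5, and for Pkm from 73.3 to 120.1 and from 139.0 to 235.8. These samples also had the lowest total counts, and the squamous marker sum was 17324 to 28165 in them, against 42011 to 54559 in the other 5. Member reads numbered 2407 to 3267 in the 4 samples and 35863 to 48582 in the other 5, a wider gap than in total counts. On the normalized scale 3 counts were worth 0.707 to 1.25 in the 4 samples and 0.0872 to 0.124 in the other 5. Normalized levels, those of Ckmt1 and Pkm included, thus rest on a scaling that differs between the sets by more than total counts do. The labels do not say whether the 4 mice were another batch. The part of depth, or of anything else that sets these mice apart, in these differences was not tested.

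Other genes of the same pathways were listed by function. Of 52 such genes, 47 were tested and 37 called, 9 higher and 28 lower in epithelium, with a median log2 fold change of -1.50 against -0.05 over all genes, of which 56.2% were called. Among the 10 that were abundant, did not overlap and had the largest changes, 9 were lower. Adssl1, the muscle adenylosuccinate synthase of the purine cycle that Ampd1 belongs to, had a log2 fold change of -6.16 (SE 0.47). Ppp1r3a and Ppp1r3c, which target protein phosphatase 1 to glycogen, were at -6.03 and -5.62, Gyg, the primer of glycogen chains, at -4.15, Ugp2, which makes UDP-glucose, at -3.05, and Gaa, the lysosomal glucosidase, at -1.86. Pdk2 and Pdk4, kinases that switch off pyruvate dehydrogenase, were at -4.99 and -3.55. Eno1b (1.93) was the one that was higher.

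No member was called by age in epithelium. With code form as covariate, 0 of 39 members were called by edgeR and 0 by DESeq2, which gave an adjusted p for 31 of them, while over all genes edgeR called 2 of 15859 (0.0126%) and DESeq2 28. At an unadjusted p under 0.05 there were 0 members, against 3.21% of all genes (509). The median log2 fold change (aged minus young) was -0.01 over the members, and 26 members lay within 0.2 of 0. Hk1 was at 110.8 ± 28.8 in aged and 105.1 ± 20.9 in young epithelium (SD, n = 5 and n = 4). Its difference of -0.02 had an approximate 95% interval of -0.29 to 0.25. Ckmt1 (-0.08, interval -0.34 to 0.18) was bounded as closely. The intervals were wide for the muscle isozymes, whose level varied most between sheets: Ckm had a difference of -1.11 with an interval of -3.84 to 1.62. The 5 members with the lowest unadjusted p, all above 0.05, were Ampd1 (log2 fold change -1.0, SE 0.69), Ldhb (0.54, SE 0.44), Aldoa (-0.19, SE 0.16), Eno1 (0.15, SE 0.14) and Phkg1 (0.67, SE 0.64). The Aldoa difference was 0.16, of the other sign, in the 5 mice with both layers alone.

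In stroma, 3 aged and 2 young samples were compared, and 0 of 39 members were called by edgeR or DESeq2. Over all 21323 genes tested edgeR called 0% (0 genes), with 3.64% (776 genes) at an unadjusted p under 0.05, and DESeq2 called 2 genes. Ckm was at 1373 ± 330.1 in aged (SD, n = 3) and 1324 ± 127 in young (SD, n = 2), with a log2 fold change of 0.04 (approximate 95% interval -0.49 to 0.58). Pygm was at 0.01 (interval -0.44 to 0.47), Eno3 at -0.02 and Aldoa at -0.01. Ckmt2 was at 0.51 and Pfkm at 0.29, and Pfkm did not overlap between ages (269 to 336 in aged, 226 and 255 in young). In 8 of 39 members (20.5%) the aged and young samples did not overlap, a share close to the 20.6% of all genes tested. Unadjusted p were lowest for Ckb (log2 fold change 1.84, SE 0.47), Slc16a1 (-0.75, SE 0.29), Ldhb (0.72, SE 0.31), Eno1 (0.89, SE 0.41) and Fbp2 (-1.14, SE 0.58), under 0.05 in the first 3 of these 5, and every adjusted p was near 1. The Fbp2 value moved to -0.41 without mouse Y3 and to -1.76 without mouse O2.

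Ckb had the largest age difference in stroma. It was at 26.4, 48.7 and 17.2 normalized counts in O1, O2 and O3 and at 6.40 and 10.7 in Y1 and Y3. Its adjusted p was 0.162 with DESeq2, and it was called with no filter on low counts (adjusted p = 0.00313, edgeR). The smooth muscle sum was 941, 2051 and 816 in the same aged samples and 303 and 599.9 in the young ones, in the same order of samples as Ckb. Cnn1, Myh11 and Smtn of that list kept this order, with Cnn1 at 113.5, 178.8, 46.9, 10.8 and 42.9 in O1, O2, O3, Y1 and Y3. Acta2 did not (230.3 in O1 and 262.4 in O3), nor did Tagln (0.459 in O3 and 0.591 in Y3). The part of smooth muscle in the Ckb difference was not tested.

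**Figure D5:**
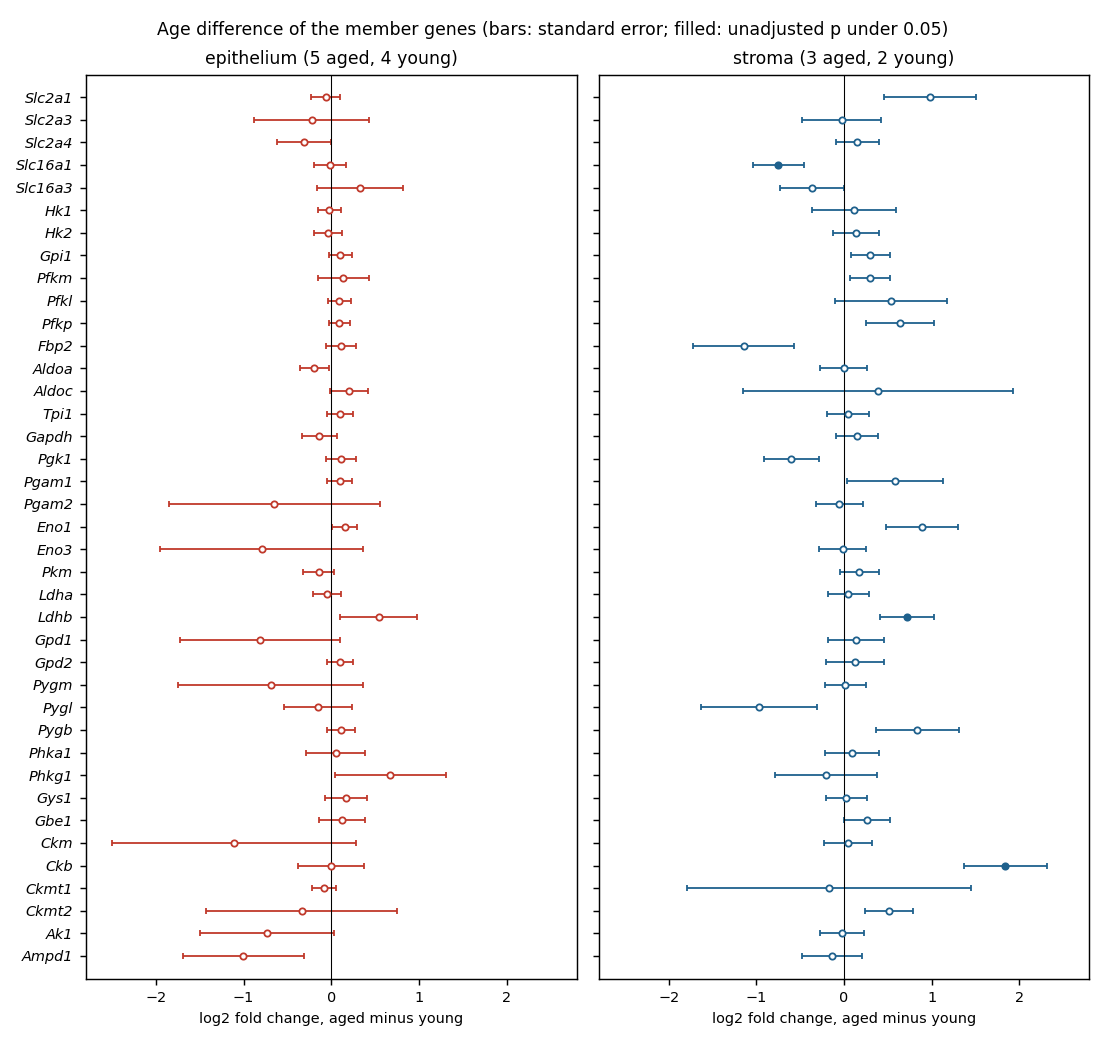
Log2 fold change between aged and young mice (x axis, aged minus young) with its standard error for the 39 genes, in epithelium (left, 5 aged and 4 young) and stroma (right, 3 aged and 2 young). Filled points have an unadjusted p under 0.05, none in epithelium and Ckb, Slc16a1 and Ldhb in stroma, and no gene passed the adjusted threshold.

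Whether age acted differently in the 2 layers was tested in 10 samples, both layers of 5 mice. No member was called for the interaction by edgeR (0 of 39) or DESeq2 (0 of 39), and over 22771 genes edgeR called 0% (0 genes), with 4.3% (979 genes) at an unadjusted p under 0.05, and DESeq2 called 62 genes. Of the members 4 had an unadjusted p under 0.05 and an adjusted p near 1. They were Slc16a1 (age effect in epithelium minus that in stroma 0.96 on the log2 scale, SE 0.32), Pgk1 (0.91, SE 0.30), Ckb (-1.62, SE 0.55) and Fbp2 (1.53, SE 0.63). With mouse as a replicate block the count was 0 as well.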

How the data were processed

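The authors aligned bulk RNA-Seq reads to GRCm38.p6 with Rsubread, counted them per gene with featureCounts and deposited raw counts per gene symbol for each sample. The libraries were made from poly(A) RNA, and base calls came from bcl2fastq, per the labels. Strand and multi-mapping settings are not given in the sources used here.

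The members and lists were chosen with earlier results of these data known. Counts of all genes were fitted with edgeR 4.0.16 (R 4.3.3; TMM, filterByExpr at 10 counts, robust quasi-likelihood test, Benjamini-Hochberg adjustment, threshold 0.05). Layer was tested over 14 samples, age within each layer, with code form as covariate in epithelium, and the interaction in the 10 samples of 5 mice. Standard errors are the fold change divided by the root of F. The 95% intervals are 1.96 standard errors to each side, a normal factor that is too narrow for so few samples. By age in stroma, the intervals of Eno1 (0.09 to 1.70) and Fbp2 (-2.27 to -0.02) left out no change. Their unadjusted p were 0.0559 and 0.0755 (edgeR). All members were named, plus up to 10 other pathway genes (called, average log2 CPM of at least 4, no overlap) and, by age, the 5 members of lowest p. One of the other pathway genes that this rule names is not reported here. Isozyme ratios were tested by exact permutation (scipy 1.17.1). Levels per kilobase used the principal transcript of GENCODE M21, and Aldoa, which has 2 gene entries there, was given by its longer one. Promoters are from RefSeq, and the 50 bases after the start were left out. DESeq2 1.42.0, other scalings and filters, a mouse block and leaving out each mouse were alternatives. The fits were tested on simulated data. Mice are separate animals, and intervals cover the spread between these samples.

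The pairing comes from the mouse codes, which give both layers of 1 animal. Deviations from the group means correlated by 0.0422 to 0.141 between the layers of a mouse. No sample pair agreed within counting noise. In epithelium, disagreement relative to that noise (chi-square per degree of freedom) was compared between mice of the same age. It was 12.0 to 59.2 within the mice with stroma or within those without, and 564 to 946 across these sets.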

Additional observations from a re-analysis of the deposited data

How the results depend on the processing

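Calls by layer held their direction in every fit for the 38 called members, and 28 members kept both direction and side of the threshold in all 18 alternatives that tested them. With at least 10 counts in every sample, 21 members could be tested, of which 19 were called. Calls over all genes fell to 4316 (9441 without that filter) and over other pathway genes to 14 (37 without it). The share of all genes called under that filter is not given here, so 19 of 21 cannot be set against it. Of the 18 members left out by that filter, 16 had fewer than 10 counts in some epithelial sample and the other 2, Ckmt1 and Aldoc, only in stroma. Pgk1, not called, was at -0.14 under that filter, of the other sign. Against a fold change of 2, 28 of 39 members and 4885 of 16791 genes passed. Without each mouse in turn, 36 to 38 members and 14 to 15 of the ratio pairs were called by layer. Over all genes these fits called 8395 to 9484, against 9441 of 16791 with every mouse. The sign-flip test with the mouse as replicate block called 0 pairs, since it cannot pass with 5 mice. The block left 34 other pathway genes called.

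By age, 0 members were called in epithelium under every alternative, 0 in stroma except 1 (Ckb) with no filter on low counts, and 0 for the interaction, with or without the block. Aldoa by age in epithelium was 0.16 in the 5 mice with both layers. Over all genes, no filter gave 36 calls by age in epithelium and 26 in stroma, and leaving out mouse Y1 or Y3 gave 13 or 7 in stroma. Rescaling shifted the median of all genes by layer by at most -0.10 (log2). Depth limits members at a few counts in epithelium, and 3 aged against 2 young stromal samples limit the age comparison.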
